A study of Mus musculus with 44 samples.

Results

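The tissue inhibitors of metalloproteinases, or TIMPs, are a family of small secreted proteins encoded in the mouse by Timp1, Timp2, Timp3 and Timp4. Reck encodes a membrane-anchored inhibitor of the same proteases. These 5 genes were taken by name from both tables of normalized counts, and each has 1 row among the 24150 genes of the subcutaneous table and the 26940 genes of the intratracheal table.

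Matrix metalloproteinases cut collagen and other components of the extracellular matrix, and a TIMP blocks them by inserting its first cysteine into the active site, where it binds the catalytic zinc. TIMP2 also forms a bridge between MMP14 on the cell surface and the precursor of MMP2, so that it can take part in the activation of MMP2 as well as in its inhibition. TIMP3 is held in the matrix and inhibits the sheddase ADAM17, TIMP1 is an inducible inhibitor that pairs with MMP9, and RECK works at the surface of endothelial and mural cells, where it also acts as a receptor for WNT7 together with ADGRA2.

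Lungs of C57BL6j mice were profiled by RNA sequencing after polyA selection, from tissue pieces of about 3 mm3. All 44 samples, the tumour-free ones included, carry the label of the cell line LL/2-Luc2, a luciferase-marked line of Lewis lung carcinoma cells. In the subcutaneous model, wt mice received the cells at the dorsal flank and their lungs were taken as early metastatic lungs, after HBSS as vehicle (n = 5) or after recombinant human TIMP2, written rTIMP2, which was started on day 0 (n = 5) or on day 7 (n = 4). For the intratracheal model, mice with the genotype wt (WT) or mutant Timp2 (MT2) were tumour-free, or had been given the cells through the trachea together with HBSS or with rTIMP2, with n = 5 in each of the 6 groups. The dose of rTIMP2 was 200 µg/kg per day by intraperitoneal injection. The labels give neither the kind of the Timp2 mutation, nor the age or sex of the mice, nor whether each sample is a separate animal, so each p-value here is set against variation among samples that may in part be technical.

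The sequences below show a stretch that the 4 inhibitors, read as 1 family, have in common. Each is the stretch of 60 coding bases that starts at the first cysteine of the mature protein, printed 5′ to 3′ from the GENCODE M21 transcripts on GRCm38, with every cysteine codon in capitals. The stretch spans an exon junction in all 4 genes, at X:20871111-20872784 for Timp1, 11:118320202-118355012 for Timp2, 10:86300923-86338380 for Timp3 and 6:115250470-115251691 for Timp4.
Timp1: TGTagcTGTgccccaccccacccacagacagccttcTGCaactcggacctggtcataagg
Timp2: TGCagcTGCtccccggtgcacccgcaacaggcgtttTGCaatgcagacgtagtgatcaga
Timp3: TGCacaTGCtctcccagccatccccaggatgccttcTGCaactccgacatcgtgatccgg
Timp4: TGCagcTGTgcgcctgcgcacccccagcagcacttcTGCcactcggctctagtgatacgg
The 3 cysteine codons stand at the same places in all 4 genes, and the first codes for the cysteine that meets the zinc. Each stretch was found by the amino acid pattern CxCxPxHPQ, where x is any residue. The codons of that pattern therefore coincide by construction and add to the identity given next. The last cysteine codon was not part of the pattern. Between any pair of genes, 38 to 43 of the 60 bases were identical. Over the whole coding sequences Timp2 and Timp4 were the closest pair, with 63.3% of aligned bases identical, and Timp1 and Timp2 the most distant, with 55.6%.

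The genes lie apart from each other, and 3 of them lie inside a synapsin gene. On GRCm38, Timp1 lies at X:20870166-20874735 within Syn1, Timp3 at 10:86300372-86349506 within Syn3, and Timp4 at 6:115241892-115252205 within Syn2, each on the strand opposite to its host. Exons of Timp3 and Syn3 share 1733 bases and those of Timp4 and Syn2 share 90, while Timp1 and Syn1 share none. Timp2, at 11:118301069-118355740, holds the nested gene Cep295nl, and Reck lies at 4:43875530-43944806. The strand of counting is not given in the sources used here, so reads in the shared exon bases cannot be told apart. The highest values of the host and nested genes in any library were 149 for Syn1, 210 for Syn2, 79.8 for Syn3 and 25.2 for Cep295nl. Syn2 was above Timp4 in all tumour-free and subcutaneous libraries, whereas Syn3 and Cep295nl were far below Timp3 and Timp2.

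Promoter windows of Timp1 and Reck are printed because these genes moved furthest of the 5, in opposite directions, in WT tumour lungs. Each window holds the 250 bases before the gene's start, from RefSeq on GRCm38.p6, with matches to a GC box (GGGCGG, or CCGCCC on the other strand) and to the core of a hypoxia response element (ACGTG) in capitals. They lie at X:20869916-20870165 for Timp1 and at 4:43875280-43875529 for Reck, both on the plus strand.
Timp1: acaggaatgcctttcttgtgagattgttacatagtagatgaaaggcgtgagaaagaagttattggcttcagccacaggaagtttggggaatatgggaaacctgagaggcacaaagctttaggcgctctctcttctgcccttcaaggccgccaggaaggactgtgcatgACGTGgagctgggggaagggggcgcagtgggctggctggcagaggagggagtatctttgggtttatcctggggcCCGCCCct
Reck: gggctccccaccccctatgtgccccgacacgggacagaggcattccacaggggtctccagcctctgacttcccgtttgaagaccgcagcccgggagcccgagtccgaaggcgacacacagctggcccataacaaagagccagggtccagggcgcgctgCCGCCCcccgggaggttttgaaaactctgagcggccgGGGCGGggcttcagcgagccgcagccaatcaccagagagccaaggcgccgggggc
The Timp1 window held 1 GC box and 1 ACGTG, and the Reck window held 2 GC boxes. Searched on both strands, a GC box is found in 32.7% and ACGTG in 16.6% of the 32851 promoter windows of this length. The AP-1 motif TGANTCA (in 6.75% of windows), the STAT motif TTCNNNGAA (7.02%) and TATAAA (12.4%) were found in none of the 5 windows of these genes. The Reck window was 68.4% G or C and the Timp1 window 54.4%, against a median of 52.4% over all windows.

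Values are the authors' normalized counts, in which a value near 1 stands for about 1 read. The step between low values gave a depth of 14.86 to 19.41 M (mega) reads per subcutaneous library and 10.68 to 17.14 M per intratracheal library. The reporter is the luciferase row, named Luc for the intratracheal and Luc2 for the subcutaneous libraries. The models were normalized separately, so their levels are not on the same scale. The reporter was 0 in all 10 tumour-free lungs, 39.3 to 70.9 in the 10 HBSS tumour lungs, and 14.3 to 44.8 in the subcutaneous lungs. The tumour transcript Hmga2 was 1.01 to 18.0 in the subcutaneous lungs, against 2212 to 5070 in the HBSS tumour lungs. Treated intratracheal lungs stand apart from each other: the reporter was 0 in WT rTIMP2 replicates 2, 3 and 5, 23.3 and 67.7 in replicates 1 and 4, 0.983 in MT2 rTIMP2 replicate 2 and 37.9 to 75.5 in the other 4 MT2 libraries. Xist, which is transcribed from an inactive X chromosome, was 4118 to 6657 in the tumour-free lungs, where the Y-linked gene Ddx3y was at most 5.78. In the lungs of mice given cells by either route, Ddx3y was 123 or more in every library, and in the subcutaneous libraries Xist was at most 40.8. Xist was 42.2, 92.4 and 54.5 in WT rTIMP2 replicates 2, 3 and 5 and 119 in MT2 rTIMP2 replicate 2, against 1153 to 8305 in the other lungs given cells intratracheally. Since Ddx3y separates all tumour-free from all other intratracheal lungs, and the tumour-free samples carry another range of sample numbers, the effect of tumour cannot be told apart from what these differences mark. Tumour lungs also mix RNA of the host and of the injected cells, and in bulk tissue fewer cells of a type and less RNA per cell cannot be told apart.

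**Figure D1:**
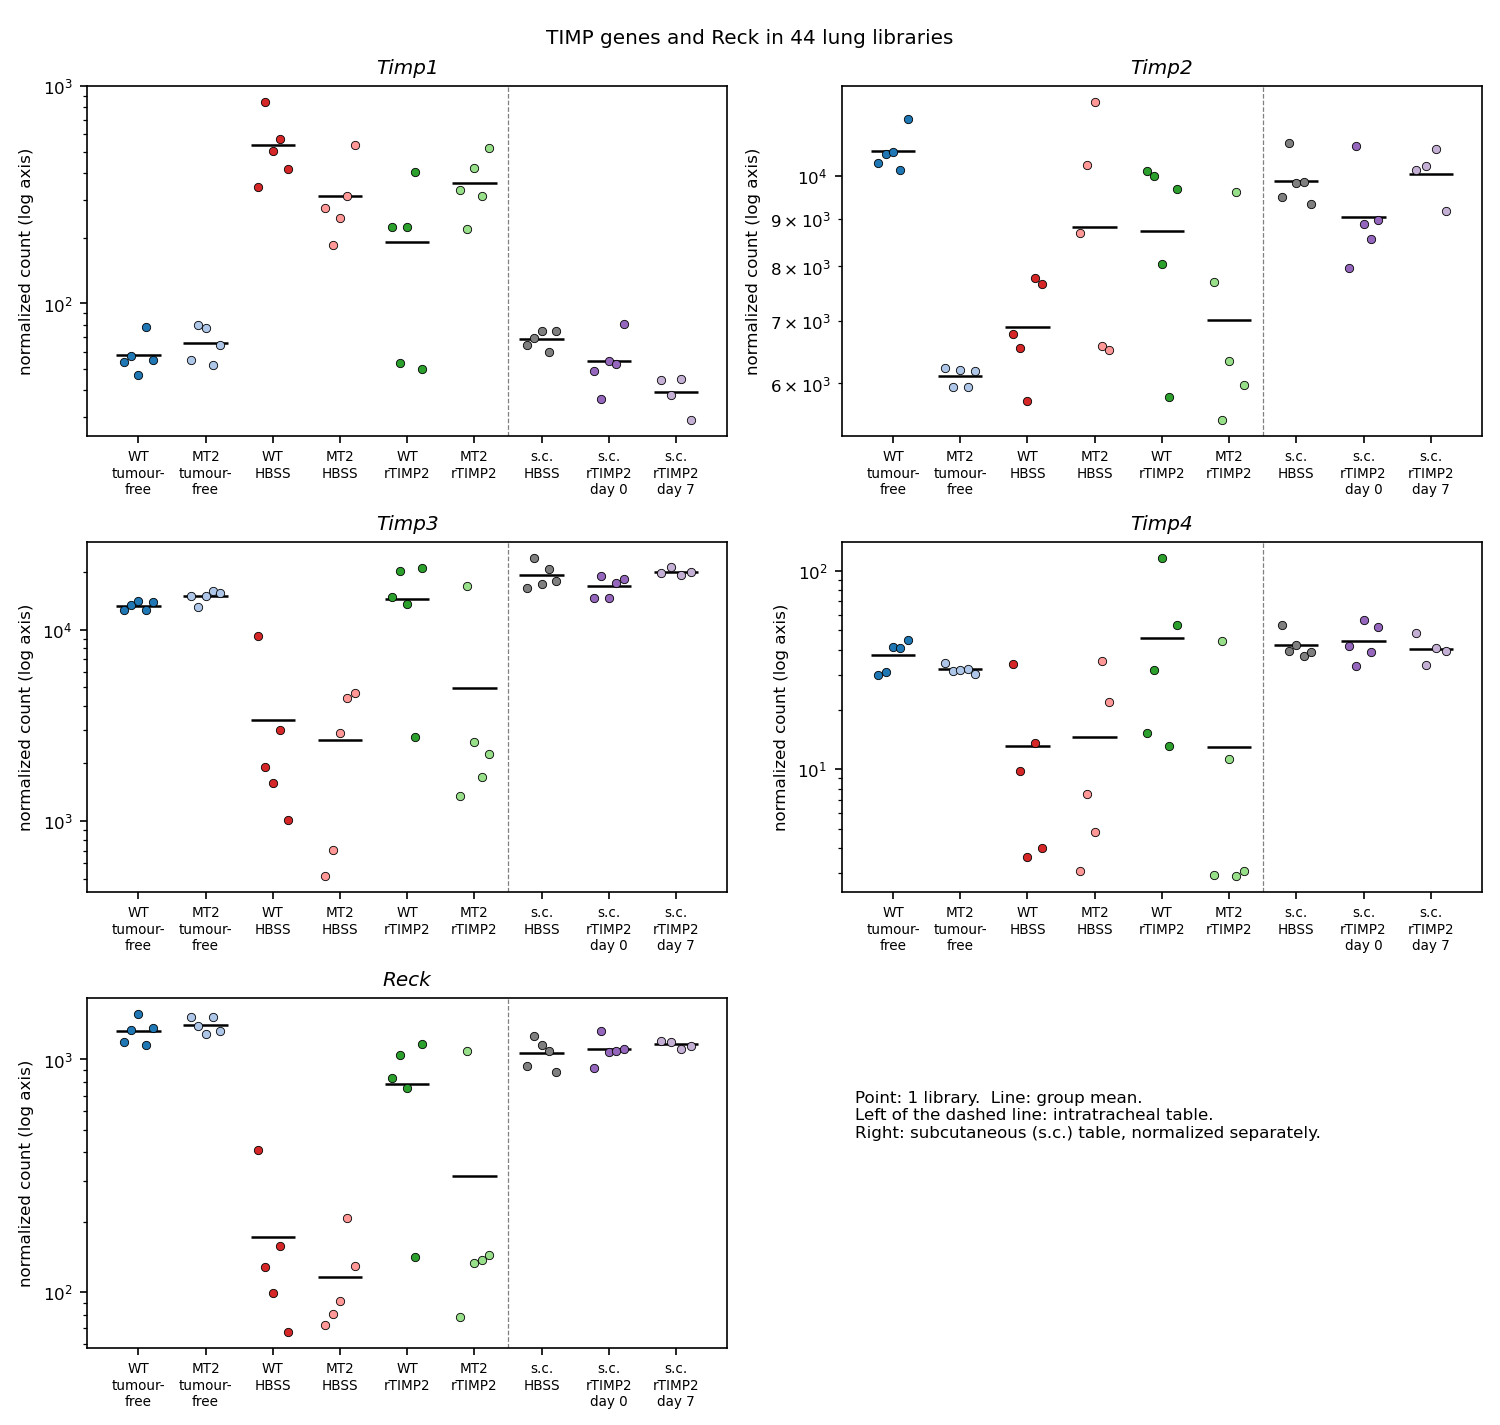
Normalized counts of the 5 genes in all 44 libraries (log axis), by group, with 1 point per library and a line at the group mean. In HBSS tumour lungs Timp1 sits above and Reck and Timp3 sit below the tumour-free lungs of the same genotype, with no shared values. Treated WT lungs are spread over both levels, and Timp3 reaches 21140 in a treated WT lung, above all tumour-free lungs. In treated MT2 lungs Timp1, at 220 or more, is above all tumour-free lungs. Replicate 2 of these MT2 lungs stands apart from the others, with Timp3 at 16914 and Reck at 1083, the latter below all tumour-free lungs.

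To set levels of different genes side by side, values were divided by kilobases of exon, counted over all transcripts of a gene in GENCODE M21. This length was 3.896 for Timp2 and 8.144 for Timp3. The transcripts in use may be shorter, so the order depends on it. Before the division Timp3 (mean 13385) was above Timp2 (10619) in tumour-free WT lungs. Per kilobase, Timp2 was the most abundant of the 5 in these lungs at 2726 ± 133 (SD, n = 5). Timp3 followed at 1644 ± 87.4, Reck at 278 ± 34.6, Timp1 at 65.5 ± 13.2 and Timp4 at 6.37 ± 1.14. No neighbours in this order came within their SDs of each other. In tumour-free MT2 lungs Timp3, at 1835 ± 132 per kilobase, stood above Timp2, at 1567 ± 36.9. In the subcutaneous HBSS lungs Timp2 (2532 ± 151 per kilobase) and Timp3 (2367 ± 369) lay within their spread, above Reck (222 ± 31.7), Timp1 (77.2 ± 7.44) and Timp4 (7.16 ± 1.09).

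The order of the group means per kilobase differed in the HBSS tumour lungs, where Timp1 stood second behind Timp2. Before division by length, Timp3 (mean 3358) was above Timp1 (536) in WT tumour lungs. In WT tumour lungs Timp2 had 1771 ± 215 per kilobase, Timp1 603 ± 218 and Timp3 412 ± 417, and the last pair lay within their spread. Reck had 36.1 ± 28.6 and Timp4 2.21 ± 2.12. In MT2 tumour lungs Timp2 had 2261 ± 609 per kilobase, while Timp1 (350 ± 151) and Timp3 (324 ± 243) again lay within their spread and Reck was at 24.4 ± 11.6. By median, Timp3 (354 per kilobase) stood above Timp1 (308) in these MT2 lungs. With rTIMP2, Timp2 was at 2241 ± 471 per kilobase in WT and 1802 ± 426 in MT2 lungs. Timp3 followed at 1786 ± 906 in WT, within the spread of Timp2, and was at 609 ± 823 in MT2 lungs, where its SD exceeded its mean. Timp1 had 406 ± 127 in treated MT2 lungs. Per kilobase, Timp3 exceeded it in replicate 2 alone, and the medians were 276 for Timp3 and 373 for Timp1.

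The mutation was compared between the genotypes first in tumour-free lungs, where it checks the labels. Timp2 was 10316, 10546, 10598, 10147 and 11489 in the 5 WT lungs and 6237, 5948, 6208, 5950 and 6184 in the 5 MT2 lungs. All MT2 values lay below all WT values, and the MT2 lungs varied least. Timp2 was lower in MT2 by a log2 difference of -0.80 ± 0.047 (SE, 95% interval -0.90 to -0.70, limma adjusted p = 1.7e-07), and it ranked 1 of 16774 genes by p. The difference does not pass when all 6 intratracheal groups enter 1 fit, where the SE is 0.17 and the adjusted p is 1. A whole-gene count does not show what the mutation changes in the transcript, and Timp2 RNA was present in every MT2 lung.

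Timp2 was the only one of the 5 genes called between tumour-free genotypes, where a called gene has a limma p under 0.05 after adjustment over the whole comparison. The background was 0.0238% of genes called, and 1.74% had groups that did not overlap, which among the 5 genes held for Timp2 alone. Timp3, the nearest to a call of the other 4, was 12675, 13505, 14147, 12624 and 13977 in WT and 15094, 13128, 15096, 15913 and 15509 in MT2 lungs, a difference of 0.16 ± 0.058 (adjusted p = 0.42). Timp1 (0.17, adjusted p = 0.76), Reck (0.09, adjusted p = 0.73) and Timp4 (-0.22, adjusted p = 0.69) did not pass either. None of the 15 tested metalloproteinase genes, the 14 tested ADAM and ADAMTS genes and the 9 partner genes was called. Mmp2, whose precursor TIMP2 binds, averaged 2230 in MT2 and 1604 in WT lungs (0.49 ± 0.18, adjusted p = 0.45).

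Ratios within a library do not depend on how the library was scaled, and only their differences between groups are read. In tumour-free lungs the ratio of Timp2 to Timp3 averaged -0.33 ± 0.054 (SD) on the log2 scale in WT and -1.29 ± 0.10 in MT2, a difference of -0.96. The ratio of Mmp14 to Timp2 was higher in MT2 by 0.93 and that of Mmp2 to Timp2 by 1.29. In all 3 ratios the 5 MT2 lungs lay apart from the 5 WT lungs, with a two-sided exact permutation p of 0.0079 each, the smallest that 5 against 5 can give (adjusted p = 0.030 over 60 ratio tests). These ratios share Timp2, so they are not independent of its difference or of each other.

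In tumour lungs no difference between the genotypes passed the threshold. With HBSS, Timp2 was 6770, 6541, 5753, 7781 and 7656 in WT and 8697, 10260, 11992, 6582 and 6512 in MT2 lungs, so the 2 groups overlapped (0.32 ± 0.21, limma adjusted p = 0.77). Timp4 was too low to be tested there, and none of the other 4 genes was called, in a comparison where 0% of all genes were. At an unadjusted p under 0.05, 1 of the 4 passed, against 7.41% of all genes. That gene was Timp1, at 342, 846, 504, 570 and 417 in WT and 274, 186, 247, 312 and 536 in MT2 lungs (-0.81 ± 0.30, adjusted p = 0.55). The values of the 2 groups overlapped.

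Wild-type lungs with tumour were compared with tumour-free WT lungs to see how the inhibitors differ where LL/2-Luc2 cells grow. Timp1 was 53.9, 57.2, 46.9, 78.0 and 55.0 in tumour-free WT lungs, so every HBSS tumour lung, at 342 or more, exceeded all of them. Reck was 1194, 1345, 1569, 1152 and 1371 without tumour and 410, 128, 99.4, 157 and 67.6 with it. The 5 tumour lungs lay below the tumour-free ones, with replicate 1 the highest of them. Timp1 rose, by a log2 difference of 3.13 ± 0.23 (adjusted p = 1.82e-06), and Reck fell by 3.22 (SE 0.38, adjusted p = 4.12e-05).

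Timp3 was 9293, 1917, 1580, 2991 and 1010 in the WT tumour lungs, against 12624 or more without tumour. Again replicate 1 was nearest to the tumour-free lungs, and again the groups did not overlap. Timp3 was lower by a log2 difference of -2.46 ± 0.48 (limma adjusted p = 0.00085), and Timp2 by -0.63 ± 0.11 (adjusted p = 0.000364), also without overlap. Timp4 was 34.1, 9.84, 3.64, 13.6 and 4.03 with tumour, against 29.9 to 44.8 without it, so replicate 1 lay among the tumour-free lungs. It fell by 1.85 (SE 0.51, adjusted p = 0.00657). Thus 5 of the 5 genes were called, against a background of 70.5% of genes. The rise of 1 gene stands against 32.8% of genes called higher, the fall of 4 against 37.7% called lower, and the 4 genes without overlap against 57.1%. The median difference of the 5 was -1.85. The host genes were called in the direction of the gene they hold: Syn1 was higher with tumour (1.78 ± 0.30), and Syn2 (-3.13 ± 0.54) and Syn3 (-1.81 ± 0.47) were lower. The part of the host genes in the differences of Timp1, Timp3 and Timp4 was not tested.

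MT2 lungs with tumour gave the same directions for 4 of the genes. Timp1 was 55.0, 80.0, 77.1, 51.9 and 64.7 in tumour-free MT2 lungs and rose by 2.15 ± 0.26 on the log2 scale (limma adjusted p = 2.58e-05). Reck was 1518, 1389, 1285, 1528 and 1320 without tumour and 72.5, 80.6, 91.8, 207 and 130 with it, and fell by 3.69 (SE 0.25, adjusted p = 4.91e-07). Every Reck value with tumour was below every value without it.

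Timp3 was 517, 708, 2881, 4413 and 4685 in MT2 tumour lungs, below all tumour-free MT2 lungs, and lower by a log2 difference of -3.01 ± 0.58 (limma adjusted p = 0.000683). Timp4 was 3.06, 7.53, 4.83, 35.2 and 21.7, against 30.01 to 34.1 without tumour (-1.57 ± 0.54, adjusted p = 0.0225), and replicate 4 was above all tumour-free lungs. The call of Timp4 was lost without MT2 HBSS replicate 1 or 3 (adjusted p = 0.051 and 0.056). Timp2 was higher in MT2 tumour lungs by 0.49 ± 0.18 (adjusted p = 0.0286), with no overlap. Leaving out any of MT2 HBSS replicates 1, 2 and 3 or MT2 tumour-free replicates 2, 3, 4 and 5 ended the call of Timp2, with adjusted p-values of 0.0506 to 0.0693. In all 5 of 5 genes were called, against 67.4% of genes, 2 higher (31.5%) and 3 lower (35.9%), and 4 did not overlap (58%).

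The difference between the genotypes in the change from tumour-free to HBSS tumour lungs was tested as an interaction. For Timp2 it was 1.12 ± 0.20 (95% interval 0.69 to 1.54), since the value with tumour was lower in WT and higher in MT2 lungs, and it ranked 5 of 17927 genes by p (limma adjusted p = 0.089). It did not pass, but passed without WT HBSS replicate 5 (adjusted p = 0.0412), MT2 HBSS replicate 4 (0.0126) or MT2 HBSS replicate 5 (0.00767). None of the 5 genes was called, against 0.0223% of genes, and 2 had an unadjusted p under 0.05, against 9.91%. The other was Timp1, with -0.98 ± 0.36 (adjusted p = 0.35). Tumour lungs of both genotypes hold RNA of the same injected cell line, and its part in the Timp2 interaction was not tested. Ddx3y also separates tumour from tumour-free lungs in both genotypes.

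**Figure D2:**
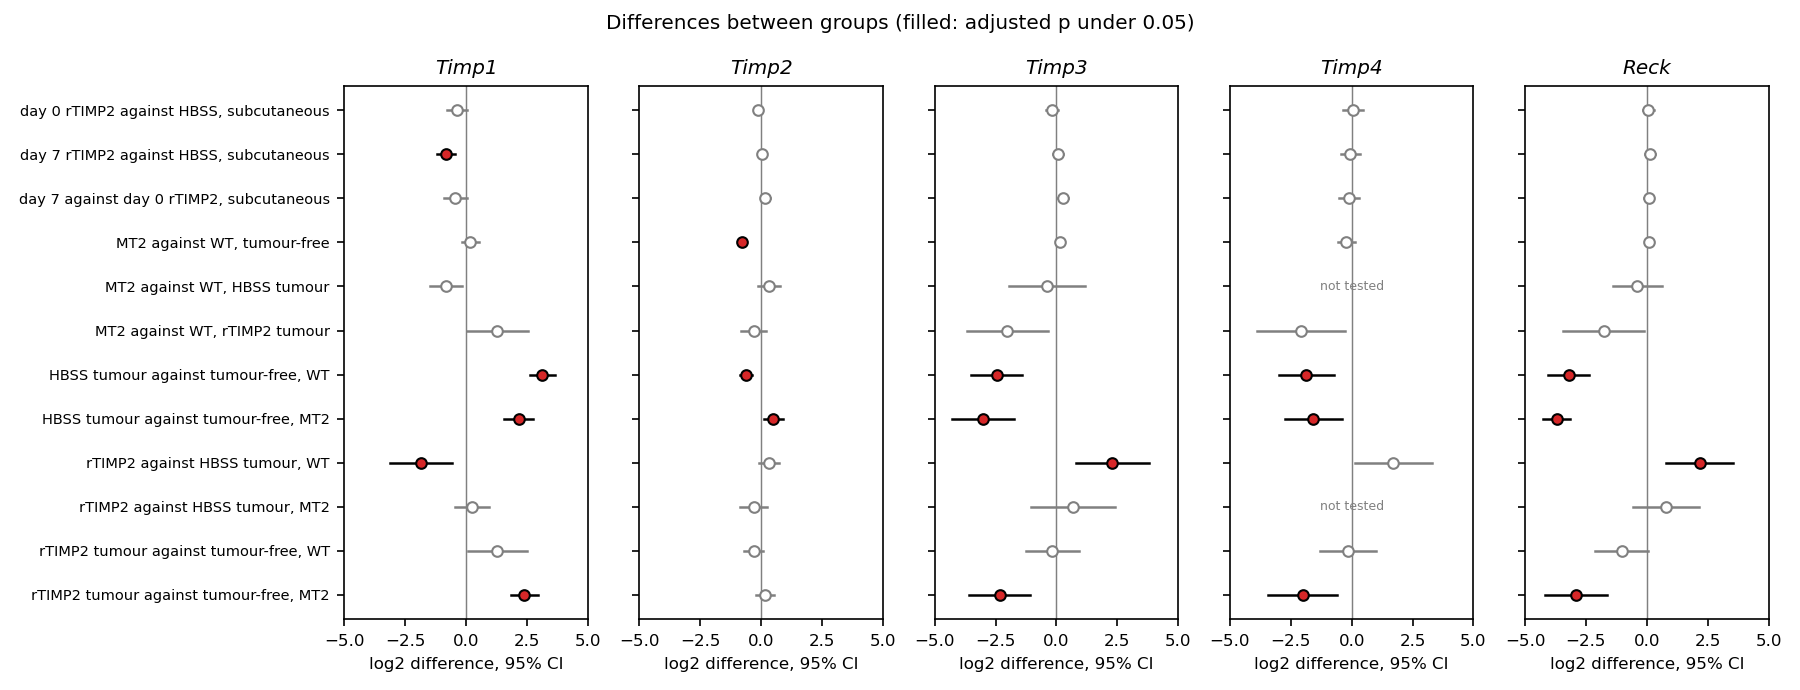
Log2 differences of the 5 genes in the 12 pairwise comparisons, with 95% intervals from limma; filled points have an adjusted p under 0.05. Timp1 lies above 0 and Reck and Timp3 below 0 in both comparisons of HBSS tumour with tumour-free lungs, and Timp2 lies on opposite sides of 0 in WT (-0.63) and MT2 (0.49).

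The proteases that these inhibitors act on differed in both directions in tumour lungs. In WT lungs 6 of 14 tested metalloproteinase genes rose and 6 fell, and in MT2 lungs 3 of 15 rose and 7 fell. Of all genes, 32.8% rose and 37.7% fell in WT and 31.5% and 35.9% in MT2 lungs, so that the share of proteases called in MT2 was near the background, and the counts of the lists below are to be read against the same shares. The median difference over the tested list was -0.07 in WT and -0.32 in MT2 lungs. Mmp14, the membrane-type enzyme that docks TIMP2, rose by 2.32 ± 0.19 in WT and 2.59 ± 0.24 in MT2 lungs, while Mmp2 fell in both (-2.94 ± 0.42 and -4.04 ± 0.32). Mmp12, the macrophage elastase, rose by 2.95 ± 0.25 and 2.03 ± 0.41, and Mmp15, another membrane-type enzyme, fell in both (-3.80 ± 0.52 and -4.93 ± 0.41). Mmp9 was called in WT lungs alone (0.82 ± 0.25), and its difference between genotypes was not called.

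Of the 14 ADAM and ADAMTS genes, 3 rose and 9 fell in WT tumour lungs, and 2 rose and 7 fell in MT2. Adam17, the sheddase that TIMP3 inhibits, rose by 0.42 ± 0.081 in WT lungs, and Adam10 was not called there (-0.17 ± 0.10, limma adjusted p = 0.15). The aggrecanase gene Adamts4 rose (2.93 ± 0.23 in WT, 2.06 ± 0.30 in MT2) and its relative Adamts5 fell (-2.43 and -2.98). Of 9 partner genes, 3 rose and 5 fell in WT, and 2 rose and 5 fell in MT2. Itga3 and Itgb1, which encode the integrin that binds TIMP2, fell in WT (-1.41 and -0.27) and in MT2 lungs (-1.74 and -0.48). Adgra2, which encodes the coreceptor of RECK, rose by 0.29 ± 0.10 in WT lungs. Of the ligands of that receptor, Wnt7a fell by 3.05 and Wnt7b rose by 3.12 in the same comparison.

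Among 16 genes for cytokines and transcription factors that are known to act on Timp1, 6 of 15 tested rose and 4 fell in WT tumour lungs, and 4 rose and 5 fell in MT2. Fosl1, an AP-1 factor, rose by 8.26 ± 0.43 and 7.99 ± 0.45, and Il11, a cytokine of the IL-6 family, by 2.50 ± 0.36 and 1.66 ± 0.28. Fos (-2.66 and -2.71) and Egr1 (-2.42 and -2.88) fell in both. Other gene groups moved in the same libraries: 6 of 6 endothelial markers fell in both genotypes, and their summed level was 53532 to 60922 in tumour-free lungs and 2268 to 18792 in HBSS tumour lungs. All 6 pericyte and smooth muscle markers, 5 of 5 alveolar type 2, 5 of 5 cardiac muscle and 3 of 5 mesothelial markers also fell in both genotypes, and 5 of 5 proliferating and tumour cell markers rose. In WT lungs the pericyte and smooth muscle sum was 10660 to 12529 without tumour and 1177 to 5470 with it, and the alveolar type 2 sum 245817 to 301290 and 23228 to 114385. Summed macrophage markers were 2424 to 3190 in tumour-free and 5681 to 11034 in HBSS tumour lungs. Summed fibroblast markers moved far less. They were 18028 to 21929 without and 14831 to 26045 with tumour in WT, and 22032 to 26665 and 18656 to 20828 in MT2 lungs. The part of these cell markers in the differences of the 5 genes was not tested.

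Within libraries, the ratio of Timp1 to Timp3 separated tumour from tumour-free lungs completely. It averaged -7.84 ± 0.32 on the log2 scale in tumour-free and -2.25 ± 1.48 in WT tumour lungs, a difference of 5.59, and the difference was 5.16 in MT2. The ratio of Mmp14 to Timp2 was higher with tumour by 2.95 in WT and 2.10 in MT2, and that of Mmp2 to Timp2 was lower, with differences of -2.31 and -4.53. The ratio of Mmp9 to Timp1 was also lower, with differences of -2.31 and -2.03. Each of these 8 differences had a two-sided exact permutation p of 0.0079 (adjusted p = 0.030). In WT all 4 lost the call without any one of HBSS replicates 2, 3, 4 and 5, with an adjusted p of 0.0501. A test of 4 against 5 cannot give a p below 0.0159, so this loss does not measure how far the values moved. Over the 10 fits that each left out 1 library, the WT difference stayed at 5.32 to 6.22 for Timp1 to Timp3 and 2.88 to 3.12 for Mmp14 to Timp2. It stayed at -2.66 to -1.98 for Mmp2 to Timp2 and -2.58 to -2.14 for Mmp9 to Timp1. The ratio of Timp2 to Timp3 passed the adjustment in MT2, where it was higher by 3.50, and not in WT, where it was higher by 1.83 (adjusted p = 0.106, and 0.043 without HBSS replicate 1).

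**Figure D3:**
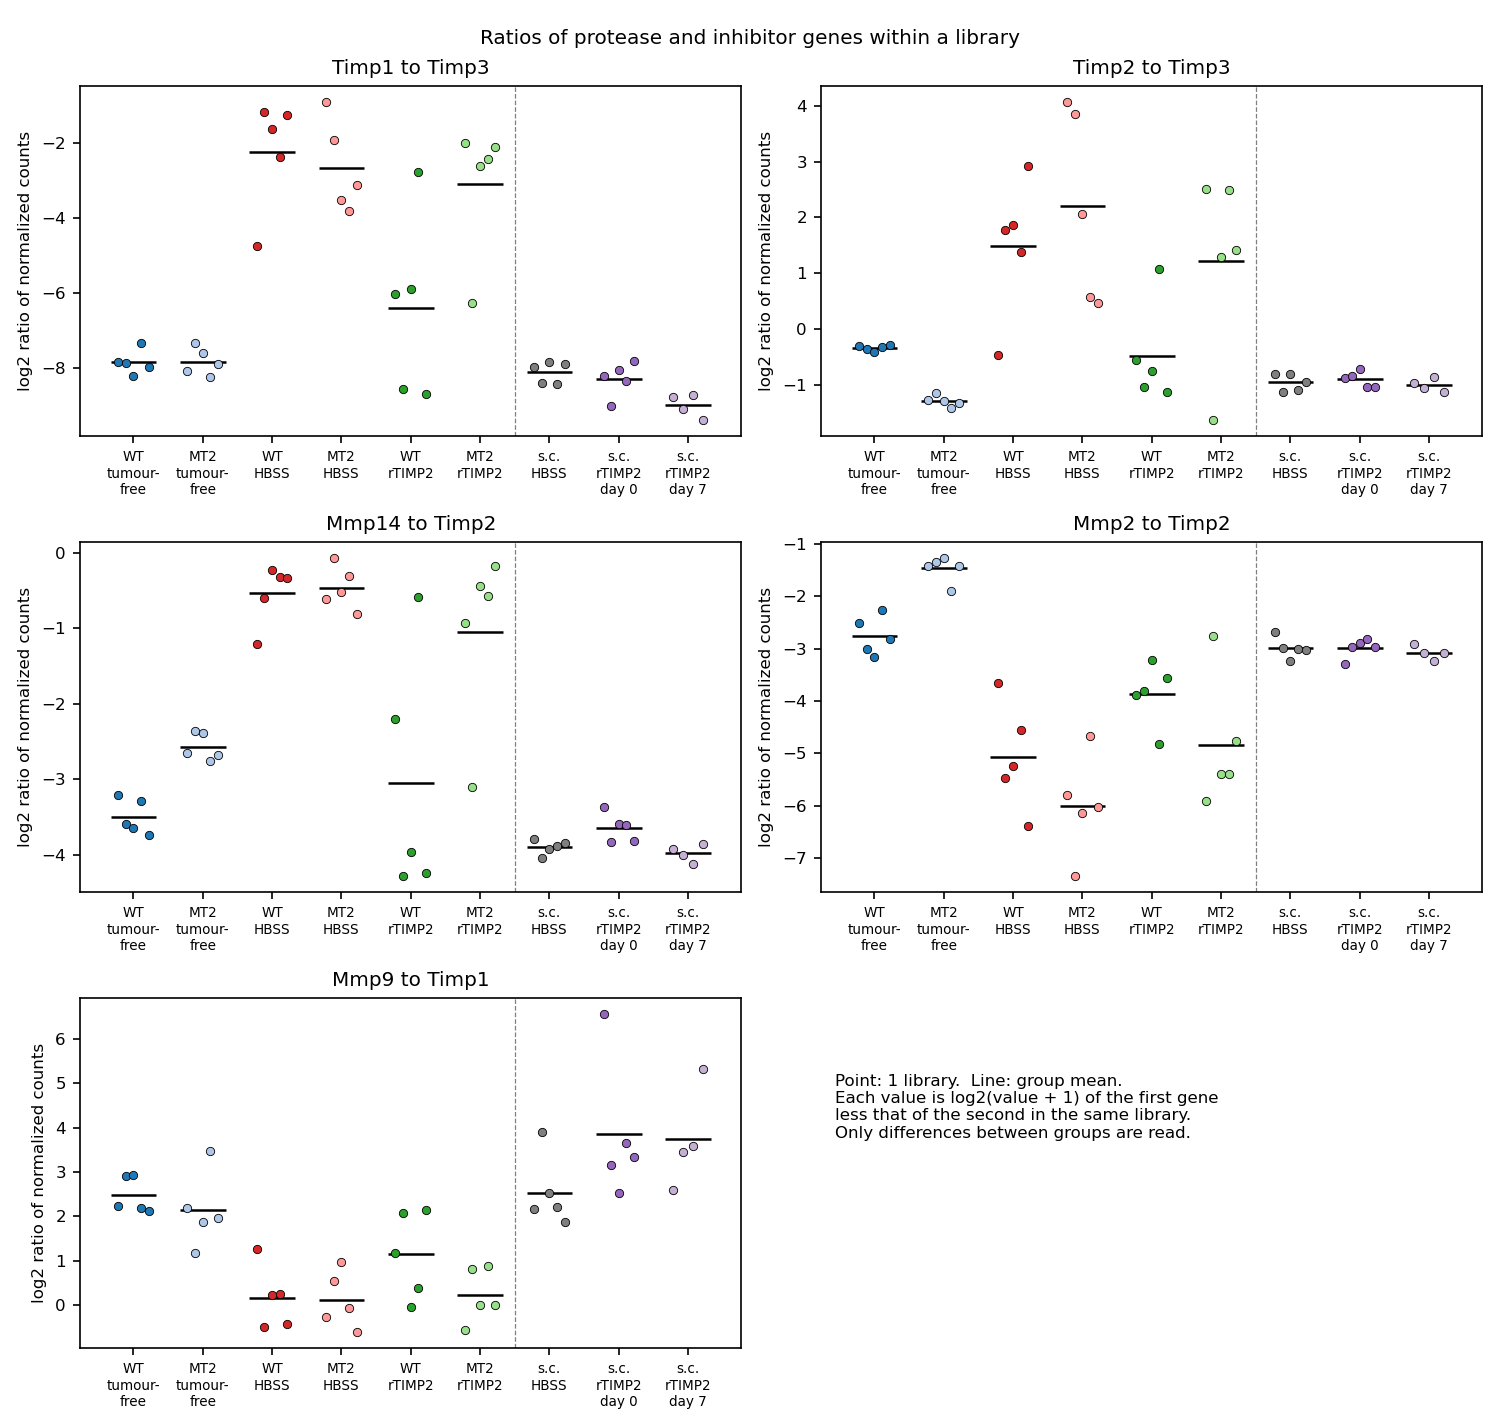
Log2 ratios of 5 gene pairs within each library, by group, with 1 point per library and a line at the group mean. For Timp1 to Timp3 the tumour-free lungs sit near -7.84 in WT and the HBSS tumour lungs sit above all of them, and for Mmp2 to Timp2 the tumour lungs sit below.

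Reck and Timp3 were set beside the endothelial markers of the same intratracheal libraries. The sum of Cdh5, Pecam1, Cldn5, Tek, Kdr and Vwf was 18792 in WT HBSS replicate 1, the HBSS tumour lung with the most Reck (410) and Timp3 (9293), against 9547 or less in every MT2 HBSS lung. It was 45570 in MT2 rTIMP2 replicate 2 and 2975 to 6832 in the other 4 MT2 rTIMP2 libraries. Reck ranged 23.2-fold over the 30 libraries, and Reck per 1000 of the marker sum ranged from 17.1 to 32.0, a 1.87-fold range. Timp3 ranged 40.9-fold, and per 1000 of the marker sum it was 228 or more, with a 3.64-fold range. It had a median of 235 in tumour-free WT lungs and was 403 to 516 in treated WT lungs, so these groups did not overlap. Among the 10 lists of cell markers, the endothelial list gave the smallest range for both genes. The next smallest was 4.9-fold for Reck, over pericyte and smooth muscle markers, and 4.61-fold for Timp3, over alveolar type 2 markers. In the 14 subcutaneous libraries the values were 14.3 to 20.0 for Reck and 229 to 350 for Timp3. These are descriptions across libraries that share a table and a scaling, and the lung samples of 1 group share their condition.

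**Figure D4:**
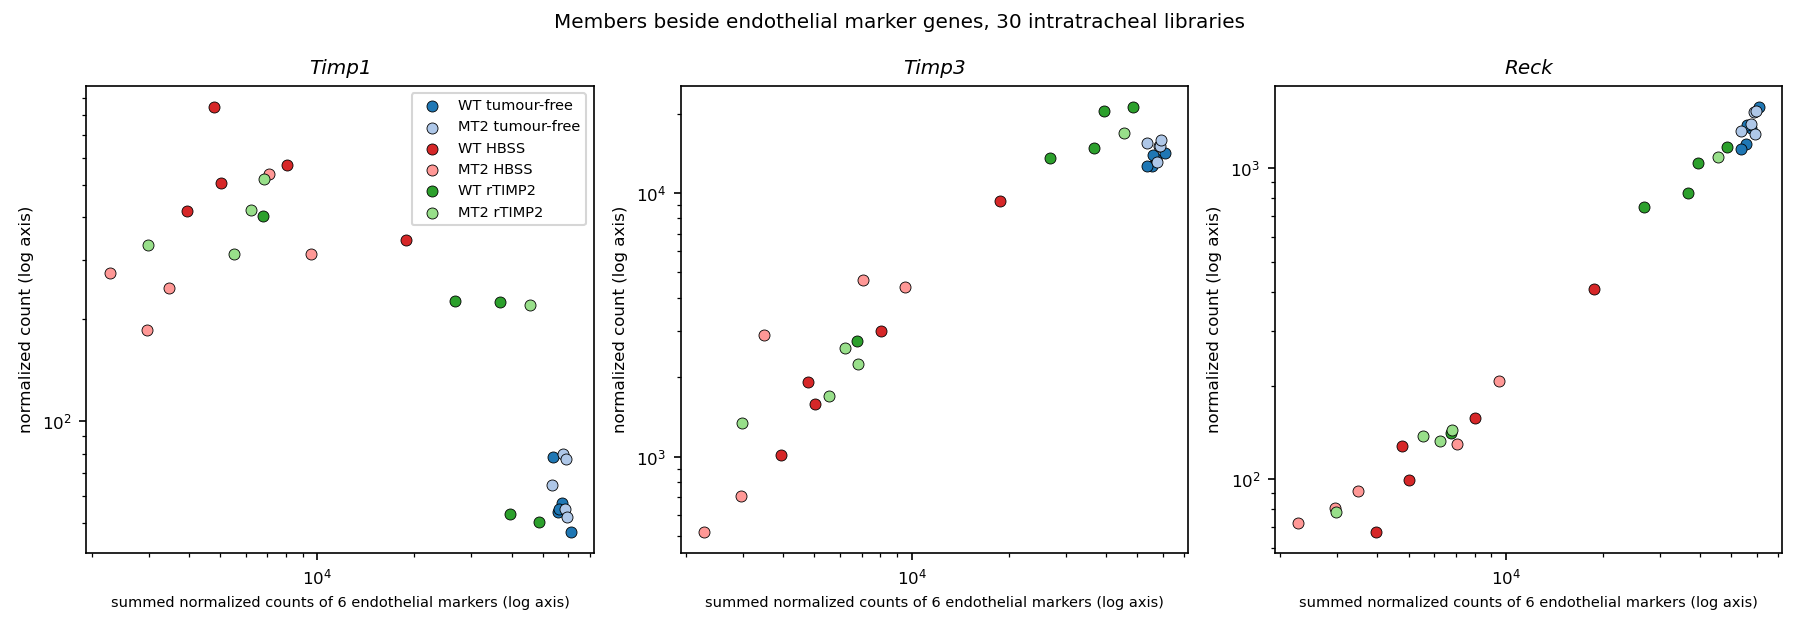
Timp1, Timp3 and Reck (normalized counts, log axis) against the summed normalized counts of 6 endothelial marker genes (log axis) in the 30 intratracheal libraries, with 1 point per library, coloured by group. Reck keeps between 17.1 and 32.0 per 1000 of the sum, and the 10 tumour-free lungs, with sums of 53532 or more, have Timp1 at 80.0 or less.

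Recombinant TIMP2 was then compared with HBSS in WT lungs given tumour cells. Timp1 was 225, 53.2, 226, 402 and 50.1 in treated lungs, so replicates 2 and 5 were at the level of tumour-free lungs and replicate 4 lay among the HBSS lungs. Reck was 831, 1040, 751, 141 and 1169, and Timp3 was 14832, 20388, 13609, 2751 and 21140. In both genes replicate 4 was at the level of the HBSS lungs and the other 4 were above all of them. Timp1 fell by 1.85 (SE 0.57, limma adjusted p = 0.042), Reck rose by 2.18 ± 0.62 (adjusted p = 0.0398) and Timp3 by 2.29 ± 0.68 (adjusted p = 0.0399).

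In this comparison 3 of 5 genes were called, against 27.3% of genes, 2 higher (16%) and 1 lower (11.3%), and the groups overlapped in each of the 5. Timp4 was 15.2, 31.7, 116, 13.1 and 53.2 (1.70 ± 0.72, adjusted p = 0.087), and replicate 3, with the highest value of any library, also had the highest summed adipocyte markers, 9542 against 258 to 1174 in the other 4. Summed cardiac muscle markers were 2654, 8328, 7971, 673 and 5894 in these 5 libraries, so they were low in replicates 1 and 4, the lowest in Timp4, and the part of either cell type was not tested. Timp2 was 10119, 9998, 8046, 5809 and 9685 (0.32 ± 0.19, adjusted p = 0.2). Leaving out any one of WT HBSS replicates 2, 3, 4 and 5 or WT rTIMP2 replicates 1, 2, 3 and 5 left none of the 5 called (adjusted p of Timp1, Timp3 and Reck up to 0.104). Without WT rTIMP2 replicate 4 all 5 were called, and Timp2 was higher by 0.46 (adjusted p = 0.0212) and Timp4 by 2.02 (adjusted p = 0.0365). Timp4 also passed without WT HBSS replicate 1 (2.14, adjusted p = 0.03).

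The reporter was 67.7 in WT rTIMP2 replicate 4 and 23.3 or 0 in the other treated WT lungs, and the summed endothelial markers were 6772 against 26772 to 48555. Of the 6 endothelial markers 5 rose with rTIMP2, as did 5 of 5 alveolar type 2 and 3 of 5 mesothelial markers, and 5 of 5 proliferating and tumour cell markers fell. The counts that follow stand against 27.3% of all genes called, 16% higher and 11.3% lower. Among metalloproteinases, 2 of 14 rose and 3 fell, including Mmp14 (by 2.19, SE 0.58), while Mmp2 did not pass (1.52 ± 0.53, limma adjusted p = 0.053). Of the 14 ADAM and ADAMTS genes, Adam28 (3.08) and Adamts5 (1.84) rose and Adamts4 (-3.28) and Adam8 (-1.75) fell. Of the factors that act on Timp1, 4 of 15 fell, where 11.3% of all genes were called lower, and none rose. The largest falls were those of Fosl1 (-4.71) and Runx2 (-1.92). The part of the injected cells and of these other cell types in the differences of the 5 genes was not tested.

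In MT2 lungs the same comparison gave no calls. Timp1 was 332, 220, 419, 312 and 518 in treated MT2 lungs, within the range of the HBSS lungs (0.25 ± 0.31, limma adjusted p = 0.79). Reck was 78.5, 1083, 133, 138 and 144, and Timp3 was 1346, 16914, 2589, 1697 and 2244, so that in both genes replicate 2 stood far above the other 4. Neither passed (0.79 and 0.67, adjusted p = 0.65 and 0.77), and Timp2 did not (-0.32, adjusted p = 0.66). Of the 4 genes that could be tested, 0 were called and 0 had an unadjusted p under 0.05, against 0% and 9.6% of genes. Timp4 was too low to be tested, at 2.94, 44.2, 11.3, 2.91 and 3.07.

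Treated lungs of the genotypes were also compared directly. None of the 5 genes was called by limma, and 0% of all genes were, while 4 of 5 had an unadjusted p under 0.05, against 17.8% of genes. Timp1 was higher in MT2 (1.29 ± 0.57), and Timp3 (-2.01 ± 0.75), Timp4 (-2.08 ± 0.82) and Reck (-1.77 ± 0.76) were lower, with an adjusted p of 0.264 each. Without MT2 rTIMP2 replicate 2, Timp3 (-2.64, adjusted p = 0.0198), Timp4 (-2.70, adjusted p = 0.0214) and Reck (-2.41, adjusted p = 0.0204) passed. The interaction of genotype with rTIMP2 was called for none of the 5, against 0% of genes, and 2 had an unadjusted p under 0.05, against 5.9%. They were Timp1 (2.10 ± 0.67) and Timp2 (-0.63 ± 0.30), with an adjusted p of 0.669 each. A difference between the genotypes in their response to rTIMP2 was therefore not shown.

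Set against tumour-free lungs, treated WT lungs had none of the 5 genes called by limma, in a comparison with 0.208% of genes called. Timp1 had an unadjusted p under 0.05 (1.28 ± 0.55, adjusted p = 0.28), as did 17.1% of genes. Timp2 was below the tumour-free range in every treated lung without passing (-0.31 ± 0.18, adjusted p = 0.34), and 8.82% of genes had groups without overlap. The differences of Reck (-1.04, adjusted p = 0.31), Timp3 (-0.17, adjusted p = 0.85) and Timp4 (-0.15, adjusted p = 0.87) did not pass. Treated WT lungs varied widely, with Timp1 at 50.1 to 402 and Reck at 141 to 1169. The lack of calls therefore does not show that they match tumour-free lungs. The ratio of Mmp2 to Timp2 was lower in treated WT than in tumour-free WT lungs by -1.11 on the log2 scale (exact permutation, adjusted p = 0.030), and that of Mmp9 to Timp1 by -1.33 (adjusted p = 0.045). The first did not pass without WT rTIMP2 replicate 1, 2, 3 or 5 (adjusted p up to 0.053), and the second, of the 10 fits that each left out 1 library, passed only in the one without WT tumour-free replicate 5 (adjusted p up to 0.087 in the other 9). A smaller group also raises the smallest p that this test can give. Over these fits the differences stayed at -1.27 to -0.86 for Mmp2 to Timp2 and -1.58 to -1.03 for Mmp9 to Timp1.

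In treated MT2 lungs 4 of 5 genes differed from tumour-free MT2 lungs, against 59.3% of genes. Timp1 rose by 2.40 ± 0.24 (limma adjusted p = 0.00117, rank 14 of 16754 genes by p), where 26.6% of genes were called higher. Reck fell by 2.90 (SE 0.57, adjusted p = 0.00584), Timp3 by 2.34 (SE 0.57, adjusted p = 0.00784) and Timp4 by 2.02 (SE 0.64, adjusted p = 0.02), where 32.7% were called lower. The groups did not overlap in Timp1 and Reck, which makes 2 of 5 against 26.1% of genes. Timp2, at 7695, 5487, 6338, 9597 and 5979, was not called (0.17 ± 0.17, adjusted p = 0.39). Of 15 metalloproteinase genes 3 rose and 7 fell, with Mmp14 higher by 1.69 ± 0.53, and 6 of 6 endothelial markers fell. The comparisons of treated and of HBSS lungs with tumour-free lungs share the tumour-free libraries.

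In the subcutaneous model the lungs were those of mice with a tumour at the flank, and the levels of the 5 genes lay much closer together. Timp1 was 64.5, 69.3, 75.0, 59.6 and 74.5 with HBSS, 48.7, 36.2, 54.1, 52.9 and 80.6 with rTIMP2 from day 0, and 44.6, 38.0, 44.7 and 29.1 with rTIMP2 from day 7. All day 7 lungs were below all HBSS lungs, while 1 day 0 lung was above them. Timp1 fell by 0.81 on the log2 scale with rTIMP2 from day 7 (SE 0.17, 95% interval -1.18 to -0.44, limma adjusted p = 0.0116), and it was called whichever library was left out (adjusted p = 0.0111 to 0.0407). It was the 1 gene of 5 called, against 10.4% of genes, and the 1 without overlap, against 14.6%.

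The other 4 genes did not pass between HBSS and day 7, with differences of 0.03 for Timp2, 0.07 for Timp3, -0.06 for Timp4 and 0.14 for Reck (limma adjusted p = 0.36 to 0.87). Reck was 940, 1256, 1148, 1087 and 885 with HBSS and 1205, 1183, 1104 and 1146 from day 7. Timp3 was 16476, 23758, 17251, 20879 and 18034 with HBSS and 19850, 21190, 19380 and 20053 from day 7. Treated lungs lay inside the HBSS range in both genes. The ratio of Timp1 to Timp3 was lower from day 7 by -0.88 (exact permutation p = 0.0159, the smallest that 4 against 5 can give, adjusted p = 0.045). Without any one of the 9 libraries it did not pass (adjusted p = 0.071 to 0.093). Leaving out a library raises the smallest p that the test can give, so this loss does not measure the stability of the difference. The difference itself stayed at -0.97 to -0.75.

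Other genes of the pathway were called in shares near the 10.4% of all genes. With rTIMP2 from day 7, Mmp28 rose (0.55) and Mmp15 fell (by 0.21) among 14 tested metalloproteinases, Adamts1 fell (by 0.39) among 14 ADAM and ADAMTS genes, and Cd63, a tetraspanin that binds TIMP1, fell by 0.29 among 9 partners. Of 14 tested factors that act on Timp1, Runx2 alone was called (0.46 ± 0.14). Of 5 mesothelial markers 3 fell, among them Wt1 (by 2.75, SE 0.51) and Upk3b (by 2.55, SE 0.58), and the marker sum was 4583 to 8116 with HBSS and 4235 to 5020 from day 7. Of 5 alveolar type 2 markers 4 fell, and their sum was 283787 to 340564 with HBSS and 224759 to 254238 from day 7. Summed proliferating and tumour cell markers were 596 to 681 with HBSS and 749 to 821 from day 7. The part of these cell types in the fall of Timp1 was not tested.

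With rTIMP2 from day 0, none of the 5 genes was called by limma and none had an unadjusted p under 0.05, against 8.1% and 26% of genes. Timp1 had the largest difference (-0.37 ± 0.19, adjusted p = 0.24), followed by Timp3 (-0.19 ± 0.11, adjusted p = 0.31) and Timp2 (-0.13 ± 0.086, adjusted p = 0.35). Reck and Timp4 each differed by 0.06. Between the treatments, day 7 against day 0, 0 of 5 were called, against 0.235% of genes. Timp3 alone had an unadjusted p under 0.05, against 12.9% of genes, and groups without overlap, against 5.55% (0.26 ± 0.090, adjusted p = 0.235). Its day 0 values were 14696, 19196, 14585, 17495 and 18334. Timp1 differed by -0.44 ± 0.22 between day 7 and day 0 (adjusted p = 0.42), so a dependence of its level on the start of treatment was not shown.

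The genes whose pattern was most like each of the 5 were found by the root mean square difference of centred log2 values, among 12708 protein-coding genes over the 30 intratracheal libraries. For Reck they were She (0.19), Adgre5 (0.19) and Pde8b (0.20), against a median of 1.73 over all genes, and for Timp3 they were Slc43a3 (0.23), Nkd1 (0.23) and Rora (0.27), against 1.62. Those of Timp1 included Hspe1 (0.43) and Ahcy (0.46), against 1.41. Those of Timp4 included Ndrg2 (0.45) and Trarg1 (0.55), against 1.39. Timp2 was nearest to Vps4b (0.29), Ppil4 (0.30) and Zfp746 (0.30), and as its own SD was 0.35, these distances are little below its whole variation.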

How the data were processed

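RNA of 44 lung samples in 9 groups was analysed. The values are a normalized signal per gene, deposited by the authors as normalized counts, 1 table per model. The build mm10 and the tools STAR, Bowtie2, Partek and DESeq2 are named per the submitters' processing notes, without their roles. The annotation and the strand of counting were not given in the sources used here. Between 78.9 and 84.5% of low values were whole multiples of 1 step (tolerance 0.02, up to 20 steps), too few to recover reads, so no count model was fitted.

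Groups come from the titles, since the treatment labels of intratracheal rTIMP2 samples form a running number. Tests used limma 3.58.1 (R 4.3.3, trend and robust options) on log2(value + 1), so that differences of low genes are understated. Only the groups compared entered a fit, over genes that reached 10 in at least the number of samples of its smaller group, with Benjamini-Hochberg adjustment over all genes tested and a threshold of 0.05. There were 12 pairwise comparisons and 2 interactions. Ratios were tested by two-sided exact permutation (scipy 1.17.1). The fit was tested on simulated data. The 5 genes and all lists were chosen with earlier results of these data known. Named genes were the 5, their hosts, 8 partners and proteases, at most 2 called rises and 2 falls of each other list, and the 3 genes nearest in pattern, some of which are not reported here; further called genes of short lists were named after their values were seen. Sequences come from RefSeq (GRCm38.p6) and GENCODE M21 (GRCm38).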

Additional observations from a re-analysis of the deposited data

Results flagged for a closer look

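In 5 of 45 tests of single genes in single groups, 1 library stood far from the other 4 of its group. A chance rate of about 1 in 20 would hold for independent, normally distributed values. These 5 cases all come from MT2 rTIMP2 replicate 2 and WT HBSS replicate 1, so they are not independent. MT2 rTIMP2 replicate 2 had Reck at 1083.19, Timp3 at 16913.7 and Timp4 at 44.2318, each the highest of its group by most of the group's range. WT HBSS replicate 1 had Reck at 409.86 and Timp3 at 9292.99. In the same libraries the reporter was 0.983 and 55.6, and the summed endothelial markers were 45570 and 18792, the highest of each group. The part of these in the values was not tested.

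Timp2 was lower with tumour in every WT lung and higher in every MT2 lung. The gap between these 2 differences was 1.117 on the log2 scale (limma adjusted p = 0.089). Tumour lungs of both genotypes hold RNA of the same injected cell line, and its part here was not tested.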

How the results depend on the processing

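The settings tried were pseudocounts of 0.5 and 5, no filter, a filter of 50, other scalings, all groups in 1 fit, limma without its trend and robust options, a replicate block and each library left out. Other scalings changed no call of the 5 genes and moved the median of all genes by less than 0.1. Rescaling to the same total changed the split of all calls: 861 higher and 491 lower in place of 671 and 728 for day 0, 948 and 798 in place of 776 and 1029 for day 7, and 2192 and 2246 in place of 2702 and 1917 for WT rTIMP2 against HBSS. With all groups in 1 fit, 0 of the 5 genes were called between tumour-free genotypes in place of 1, and Timp4 was called for WT rTIMP2 against HBSS (adjusted p = 0.0416). With no filter Timp1 was not called there (adjusted p = 0.0504). Replicate numbers gave no steady pairing of the libraries: in that comparison same-numbered libraries had correlations of -0.46 to -0.28. In the other pairwise comparisons they ran from -0.57, for MT2 against WT with HBSS, to 0.78. The latter was in MT2 against WT with rTIMP2, where the lowest was -0.40. With the replicate block, 0 of the 5 genes were called for WT rTIMP2 against HBSS in place of 3 (adjusted p = 0.103 for Timp1, Timp3 and Reck). The filter of 50 left out Timp4 in some comparisons.

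With each library left out, the counts called were 0 to 3 for MT2 against WT with rTIMP2, 3 to 5 for MT2 tumour against tumour-free, 0 to 5 for WT rTIMP2 against HBSS and 0 to 1 for the interaction of genotype with tumour. In each other comparison the count did not change. Of the ratio tests, 12 to 25 passed in place of 21, with 12 without each of WT HBSS replicates 2, 3, 4 and 5. A smaller group raises the smallest permutation p, so this count can fall with little change in the differences.

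Uncalled differences changed sign in these ranges. For day 0 they were -0.032 to 0.153 for Timp4 and -0.012 to 0.12 for Reck, and for day 7 -0.0027 to 0.071 for Timp2 and -0.15 to 0.027 for Timp4. For MT2 against WT with HBSS the range was -0.73 to 0.091 for Timp3, for treated WT against tumour-free -0.37 to 0.36 for Timp3 and -0.59 to 0.17 for Timp4, and for the interaction with tumour -0.14 to 0.72 for Timp4. Among ratios, Timp1 to Timp3 gave -0.30 to 0.0031 for day 0, -0.72 to 0.36 for MT2 rTIMP2 against HBSS and -0.11 to 0.14 between tumour-free genotypes. Mmp2 to Timp2 gave -0.062 to 0.080 for day 0. Mmp9 to Timp1 gave -0.64 to 0.57 for day 7 against day 0, -0.26 to 0.22 for MT2 against WT with HBSS and -0.069 to 0.32 for MT2 rTIMP2 against HBSS. Mmp14 to Timp2 gave -0.093 to 0.16 for MT2 against WT with HBSS and -0.17 to 0.75 for treated WT against tumour-free, where Timp2 to Timp3 gave -0.53 to 0.019. Except where the construction of a setting is named, the cause was not tested. Timp4, at 2.91 to 116 in all libraries, where 1 is about 1 read, is limited most by depth.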
